A study of Mus musculus with 16 samples.

Results

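Chemokines are small secreted proteins that guide leukocytes, and they act through receptors of the G protein-coupled family on the cells they attract. The genes described here are those whose symbol on the array platform is Ccl, Cxcl, Ccr or Cxcr followed by digits, together with Cx3cl1 and Xcl1. The rule found 47 of the 17097 genes with a named probe set, namely 34 ligands (20 of the CC class, 12 of the CXC class and 2 of the CX3C or XC class) and 13 receptors (9 of the CC class and 4 of the CXC class). Where a gene had several probe sets, the one with the highest mean over the 16 arrays stood for it.

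The study set GPER KO cardiomyocytes against intact cardiomyocytes in male and in female mice, with inflammatory and mitochondrial genes in view. GPER is the G protein-coupled estrogen receptor, a membrane receptor for estrogen. RNA from 16 mice was hybridised to Affymetrix MG-430 PM arrays, 1 array per mouse and 4 mice each in the male GPER KO, male intact, female GPER KO and female intact groups. Intact mice carry the genotype label wild type, and every mouse carries an age label of 15 weeks, while the methods of the study give an older age. The study describes the deletion as limited to cardiomyocytes, and the promoter that drove it is not given in the sources used here. The cells were released from collagenase-perfused ventricles, strained and spun at low speed without sorting, so cells other than cardiomyocytes could remain. Arrays are named here by the animal number in their label.

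In the heart, CC ligands that bind CCR2 draw monocytes from the blood, CXC ligands with a glutamate-leucine-arginine motif draw neutrophils, and CXCL12 retains progenitor cells and acts on vessels. Resident macrophages, endothelial cells, fibroblasts and cardiomyocytes can all make chemokines. Chemokine transcripts are often low in unstressed tissue and are induced by cytokines and by injury.

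Array medians lay between 3.47 and 3.51 (log2), and pairs of arrays correlated over all probe sets at 0.983 to 0.997. The probe set of Gper1, the deleted gene, lay between 2.64 and 3.11 (log2) on the 16 arrays, below the median of all probe sets. Its difference, GPER KO minus intact, was 0.01 (log2) in males and -0.08 in females, with adjusted p = 0.983 and 0.748 from limma. Its position against the deleted segment is unknown here, so it checks nothing about the genotype labels. The sex labels were checked on Eif2s3y and Xist in intact mice, whose male minus female differences were 4.20 and -3.28 (log2, adjusted p = 5.14e-09 and 1.32e-07 from limma). The 13 measured cardiomyocyte markers averaged 11.7 to 11.8 (log2) on every array. In males their mean was 11.73 to 11.78 on GPER KO arrays and 11.79 to 11.83 on intact arrays, without overlap. In females it was 11.72 to 11.79 and 11.71 to 11.78, with overlap. Of the 13, 5 were higher in male KO and 6 in female KO, with median differences of -0.01 in each sex and 0 called.

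A member was taken as clearly above the array median when its mean over the 16 arrays was at least 1 log2 unit above 3.49, the median of all probe sets, which sets the level at 4.49. Of the 34 ligands, 9 passed it: Ccl4, Ccl6, Ccl8, Ccl9, Ccl27a, Cx3cl1, Cxcl12, Cxcl16 and Cxcl17. None of the 13 receptors did (0 of 13), and the receptor nearest to the level was Ccr6 with a mean of 4.29. The 9 genes are 19.1% of the members, beside 44.1% of all 17097 genes. Each passed by its brightest probe set. Other probe sets had means under the level for Ccl27a (4.31, 3.98 and 3.36), Cx3cl1 (4.44), Cxcl16 (3.61) and Ccl9 (3.71). The other probe sets of Cxcl12 had means of 5.21 and 3.64. Just inside the level stood Cx3cl1 with a mean of 4.66 and Ccl4 with 4.81, and just outside it Ccl24 with 4.46 and Ccl21b, whose probe set may also match its near-identical copies, with 4.44. The strength of a probe set depends on its own sequence, so these values order neither genes nor proteins by abundance, and a low value is no proof that a transcript was missing. The position of each probe set is shown by class in the plot of member signal.

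**Figure D1:**
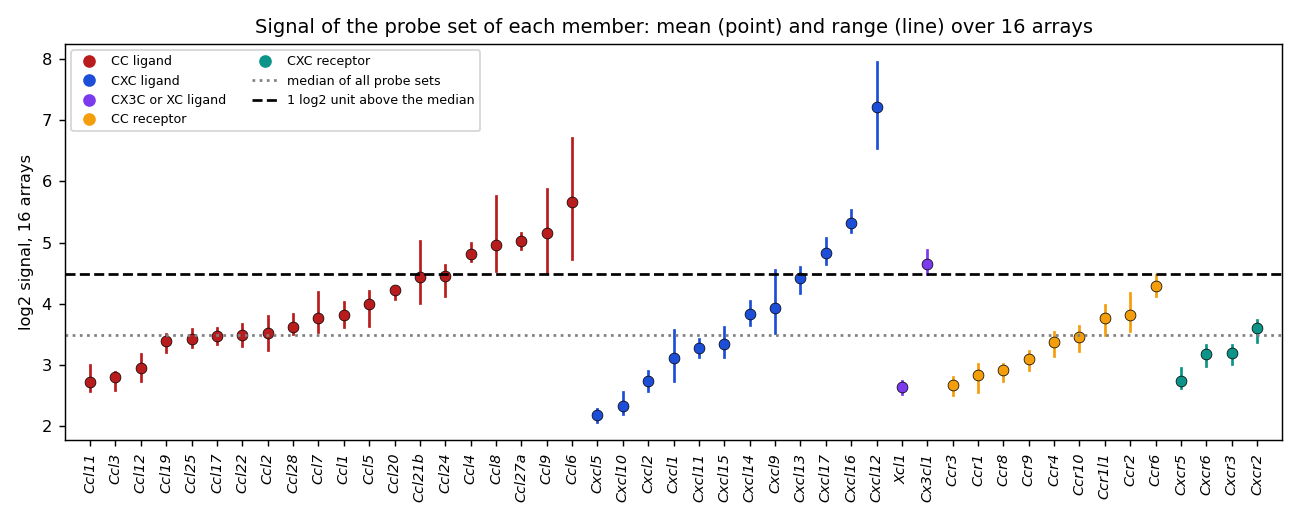
Signal of the probe set of each of the 47 members, grouped by class on the x axis, with the log2 signal on the y axis; points are means and lines the range over 16 arrays. The dotted line is the median of all probe sets (3.49) and the dashed line stands 1 log2 unit above it (4.49), with 9 ligands and 0 of 13 receptors having means past the dashed line.

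Ccl6, Ccl8, Ccl9 and Cxcl12 had the largest differences with genotype among the 9 ligands, and the 250 bases before their start sites are shown so that these windows can be compared. Sequences are from RefSeq on GRCm38.p6 and are written 5′ to 3′ on the gene's strand. Capitals mark matches, on either strand, to the motifs searched in these windows, which were TATAAA (the TATA box), TTGCNNAA (C/EBP), AGGAAG (ETS core), GGGANNTTC (NF-kB), TGANTCA (AP-1), GAAANNGAA (interferon-stimulated response element) and TTCNNNGAA (STAT). The windows are chr11:83593088-83593337 on the minus strand for Ccl6, chr11:82114935-82115184 on the plus strand for Ccl8, chr11:83578637-83578886 on the minus strand for Ccl9 and chr6:117168285-117168534 on the plus strand for Cxcl12.
Ccl6: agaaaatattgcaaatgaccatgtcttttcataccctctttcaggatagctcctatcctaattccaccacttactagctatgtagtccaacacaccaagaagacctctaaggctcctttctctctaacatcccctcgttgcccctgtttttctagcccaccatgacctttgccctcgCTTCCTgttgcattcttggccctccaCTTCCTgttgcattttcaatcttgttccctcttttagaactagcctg
Ccl8: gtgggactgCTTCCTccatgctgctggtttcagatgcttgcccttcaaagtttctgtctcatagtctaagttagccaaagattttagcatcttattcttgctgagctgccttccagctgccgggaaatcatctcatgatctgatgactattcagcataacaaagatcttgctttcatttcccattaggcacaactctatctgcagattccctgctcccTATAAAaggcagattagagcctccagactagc
Ccl9: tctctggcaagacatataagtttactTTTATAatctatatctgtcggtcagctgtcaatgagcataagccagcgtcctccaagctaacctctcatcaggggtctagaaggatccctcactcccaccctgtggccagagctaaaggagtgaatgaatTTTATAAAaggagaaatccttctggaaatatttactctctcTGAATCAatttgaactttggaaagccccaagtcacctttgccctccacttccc
Cxcl12: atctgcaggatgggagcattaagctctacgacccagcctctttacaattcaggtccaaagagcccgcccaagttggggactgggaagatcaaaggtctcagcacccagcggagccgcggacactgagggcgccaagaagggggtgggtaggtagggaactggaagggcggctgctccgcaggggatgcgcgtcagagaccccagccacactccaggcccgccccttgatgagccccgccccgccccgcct

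The window of Ccl6 holds 2 matches to the ETS core, 73 to 68 and 47 to 42 bases before the start. In Ccl8 a TATA box lies 32 to 27 bases before the start, with an ETS core 241 to 236 bases before it. Ccl9 has TATA box letters at 92 to 87 bases before the start, overlapped by a match on the other strand at 94 to 89, another at 224 to 219, and an AP-1 match at 53 to 47. Cxcl12 held none of the letters searched. The G and C content was 45.2% in Ccl6, 44.8% in Ccl8, 43.6% in Ccl9 and 64.4% in Cxcl12, beside a median of 52.4% over all 32851 windows. The longest run shared by Ccl6 and Ccl9, which are neighbours on chromosome 11, was GCCCTCCACTTCC, of 13 bases, starting 55 bases before the start in Ccl6 and 14 in Ccl9.

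Windows were found for 35 of the 47 members, in 39 entries. The NF-kB letters were in 7 of these entries (17.9%), those of Ccl1, Ccr3, Cxcl1, Cxcl10, Cxcl2, Cxcl9 and Cxcr2, and in 3.23% of all windows. The ETS core was in 17 (43.6%) beside 29.5% of all windows, the TATA box in 9 (23.1%) beside 12.4%, and AP-1 in 5 (12.8%) beside 6.75%. The interferon-stimulated response element was in 7 (17.9%) beside 7.13%, STAT in 4 (10.3%) beside 7.02%, and C/EBP in 3 (7.69%) beside 9.56%. These are matches of letters and no evidence of binding. None of the 7 genes with NF-kB letters was among the 9 clearly above the median. Not every member had a window, and a relation between these letters and signal was not tested.

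In males, Ccl8 and Ccl9 rose in GPER KO cardiomyocytes, by 1.69-fold and 1.80-fold, and these were the 2 members called of 47, where limma called 0.620% of all genes (0.509% higher and 0.111% lower). An unadjusted p under 0.05 was reached by 8 of 47 members in males, beside 10.1% of all genes. In females 0 of 47 members were called, where limma called 0.281% of all genes (0.123% higher and 0.158% lower). There 1 of 47 members had an unadjusted p under 0.05, beside 12.6% of all genes. Averaged over the sexes, which reuses the same arrays, the same 2 genes were called higher of 47, beside 1.36% of all genes (0.825% higher and 0.538% lower). In that average 9 of 47 members had an unadjusted p under 0.05, beside 11.7% of all genes. The difference between the sexes was called for 0 members and for 0% of all genes, while 1 member and 11.0% of all genes had an unadjusted p under 0.05. These RNAs come from mixed preparations, in which fewer cells of a type and less RNA per cell cannot be told apart.

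Ccl9, a CC ligand of CCR1 known mainly from rodents that attracts myeloid cells, had log2 signals of 5.88, 5.85, 5.61 and 5.37 in male GPER KO cardiomyocytes (animals 431, 432, 444 and 451) and of 4.50, 4.76, 4.74 and 5.33 in male intact cardiomyocytes (animals 430, 433, 452 and 453). All 4 male KO arrays were above all 4 male intact arrays, though the lowest KO array and intact 453 lay close together. In females the values were 5.14, 5.03, 5.46 and 5.32 in GPER KO (animals 417, 419, 426 and 427) and 4.70, 5.10, 5.08 and 4.64 in intact cardiomyocytes (animals 418, 421, 422 and 425). The female groups overlapped, with KO 419 below intact 421 and 422. The mean in males was 5.68 ± 0.24 in GPER KO and 4.83 ± 0.35 in intact cardiomyocytes (SD, n = 4 each). The log2 difference was 0.84 in males (SE 0.16, adjusted p = 0.0267 from limma) and 0.35 in females (SE 0.16, adjusted p = 0.392 from limma). The mean difference over both sexes was 0.60 (log2, SE 0.12, adjusted p = 0.0140 from limma). That last call held without any single array, with adjusted p between 0.0025 and 0.0382. The male call was lost without any one of male intact 430, 433 or 452 or of male KO 431 or 432, with log2 differences of 0.73 to 0.82 and adjusted p of 0.0780 to 0.0990, and also with the male arrays alone (adjusted p = 0.0851 from limma). A second probe set of Ccl9, with a mean of 3.71, gave a log2 difference of 0.48 in males and 0.13 in females, with adjusted p = 0.253 and 0.785 from limma over all probe sets. With the mean of both probe sets the male difference was 0.66 (adjusted p = 0.0624 from limma).

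Ccl8, which in the mouse is an agonist of CCR8, is a CC ligand of the monocyte chemoattractant group. Its log2 signals were 5.61, 5.76, 5.71 and 4.99 in male GPER KO and 4.56, 4.70, 4.86 and 4.93 in male intact cardiomyocytes, in the animal order used for Ccl9. The male groups did not overlap, and 3 of the KO arrays stood well above every intact array while KO 451 stood just above intact 453. In females the signals were 4.88, 4.65, 5.17 and 4.82 in GPER KO and 4.54, 4.62, 4.79 and 4.71 in intact cardiomyocytes. KO 419 lay inside the intact range, so the female groups overlapped. The male means were 5.52 ± 0.36 in GPER KO and 4.76 ± 0.17 in intact cardiomyocytes (SD, n = 4 each). The difference was 0.76 (log2, SE 0.15, adjusted p = 0.0255 from limma) in males and 0.22 (SE 0.15, adjusted p = 0.571 from limma) in females, where the female fold was 1.16. Over both sexes it was 0.49 (SE 0.10, adjusted p = 0.0256 from limma). The male call was lost without any one of male intact 430, 433 or 452 or of male KO 431, 432 or 444, with adjusted p of 0.0575 to 0.0974 and differences of 0.68 to 0.79. With the male arrays alone the adjusted p was 0.0971. The call over both sexes was lost without any one of those arrays other than intact 452, or without female intact 418 or 421 or female KO 426, with adjusted p of 0.0538 to 0.0596, and without female intact 421 and 422 together (0.51, adjusted p = 0.0625 from limma).

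The difference between the sexes in the genotype effect, male minus female, was 0.54 for Ccl8 (log2, SE 0.21, adjusted p = 0.426 from limma) and 0.49 for Ccl9 (SE 0.23, adjusted p = 0.457 from limma). Neither was called, so a call in males and none in females does not show that the sexes differed. Ccl8 was the 1 member whose unadjusted p was under 0.05 here (0.0190).

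Ccl6, another rodent CC ligand of CCR1, had the largest male difference of the 47 members and was not called. Its signals were 6.71, 6.37, 6.33 and 5.85 (log2) in male GPER KO and 4.72, 5.29, 5.005 and 6.19 in male intact cardiomyocytes. The groups overlapped through intact 453 alone, which lay above KO 451. In females the signals were 5.32, 5.60, 5.93 and 6.06 in GPER KO and 4.76, 5.68, 5.52 and 5.32 in intact cardiomyocytes, with overlap. The difference was 1.01 (log2, SE 0.28, adjusted p = 0.132 from limma), a fold of 2.01, in males and 0.40 (SE 0.28, adjusted p = 0.580 from limma) in females. Of the 16 runs with 1 array left out, only the run without male intact 453 called it in males (1.31, adjusted p = 0.0186 from limma). Over these 16 runs the male difference went down to 0.82 and the adjusted p up to 0.334. Over both sexes the difference was 0.71 (SE 0.20, adjusted p = 0.0997 from limma). There too only the run without male intact 453 called it (0.86, adjusted p = 0.0130 from limma), and the adjusted p reached 0.207 in these runs.

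**Figure D2:**
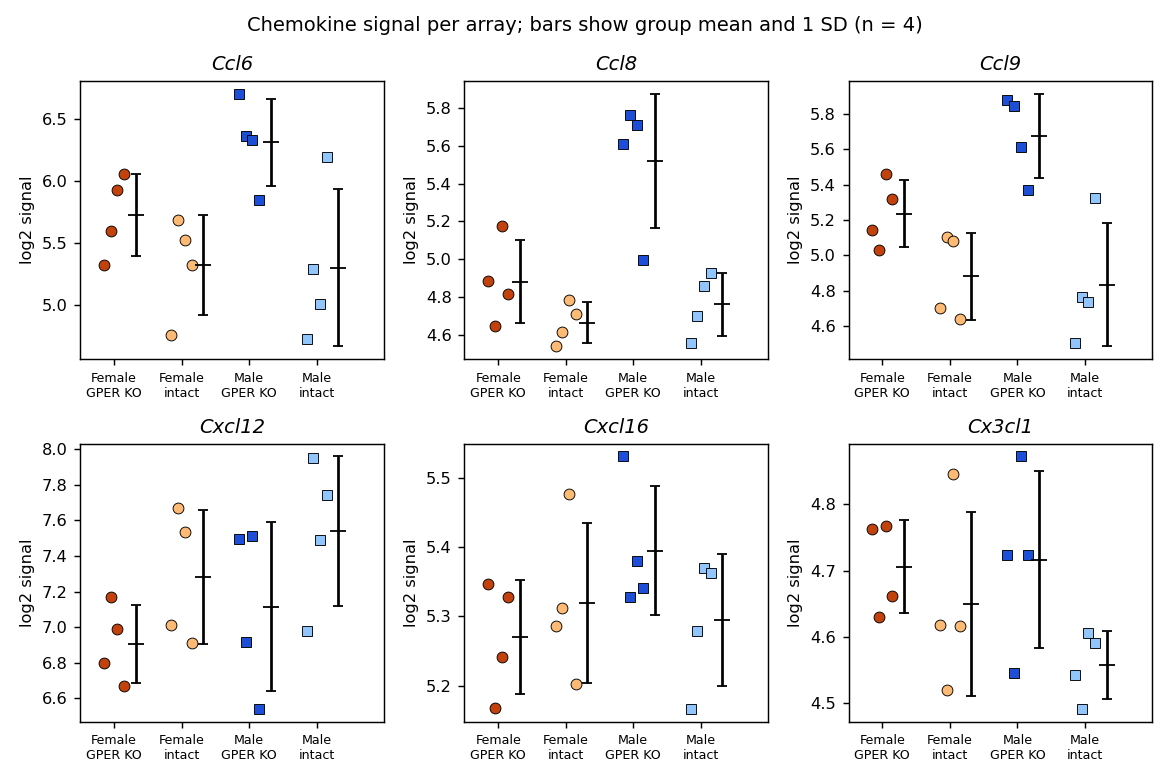
Log2 signal of 6 chemokine ligands on each array (points, 4 per group), by sex and genotype, with the group mean and 1 SD as a bar to the right of each group. Ccl8 and Ccl9 show no overlap between male GPER KO and male intact arrays, Ccl6 overlaps through 1 intact array, and each panel has its own scale.

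Macrophage and monocyte markers were higher on many of the arrays on which these 3 ligands were higher. The mean of the 21 measured markers was 4.96, 4.78, 5.002 and 4.45 (log2) in male GPER KO arrays and 4.14, 4.26, 4.20 and 4.65 in male intact arrays. In females it was 4.27, 4.35, 4.53 and 4.51 in GPER KO and 4.05, 4.29, 4.24 and 4.06 in intact arrays. In males KO 451 had the lowest mean of its group and intact 453 the highest of its own, as for Ccl6, Ccl8 and Ccl9. Of the 21 markers, 18 were higher in male KO and 17 in female KO, with median differences of 0.55 and 0.20 (log2), and 6 were called in males and 0 in females. The called markers in males were Cd68, Lyz2, Fcgr3, Tyrobp, Mpeg1 and Ctss. Over both sexes 6 were called as well, with C1qc in place of Fcgr3. Mpeg1, a pore-forming protein of phagocytes, differed by 0.70 (SE 0.10, adjusted p = 0.0027 from limma) and Lyz2, the lysozyme of myeloid cells, by 1.03 (SE 0.19, adjusted p = 0.0210 from limma). Adgre1, which encodes a surface receptor of mature macrophages, differed by 0.29 (SE 0.11, adjusted p = 0.311 from limma), and 17 of the 21 markers had means above the array median. The part of these markers in the ligand differences was not tested. Markers of other leukocytes gave 0 calls in each sex: the 10 neutrophil markers had median differences of -0.05 in males and 0.00 in females (3 of 10 above the array median), the 11 T and NK cell markers 0.03 and -0.02 (5 of 11 above) and the 7 B cell markers 0.05 and -0.05 (3 of 7 above).

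Cxcl12, which holds progenitor cells and lymphocytes in place and is made by stromal and endothelial cells, had a mean of 7.21 (log2) over the 16 arrays. Its signals were 7.50, 6.91, 7.51 and 6.54 in male GPER KO and 6.98, 7.95, 7.49 and 7.74 in male intact cardiomyocytes. In females they were 6.80, 7.17, 6.99 and 6.67 in GPER KO and 7.01, 7.67, 7.53 and 6.91 in intact cardiomyocytes. The groups overlapped in both sexes. The log2 difference was -0.42 (SE 0.24, adjusted p = 0.604 from limma) in males and -0.37 (SE 0.24, adjusted p = 0.548 from limma) in females, and -0.40 (SE 0.17, adjusted p = 0.355 from limma) over both. Female intact 421 and 422 were the highest female arrays, and without both the female difference was -0.05. The other 2 probe sets of Cxcl12 gave -0.04 and 0.06 in males and -0.11 and 0.07 in females.

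Endothelial markers lay on the same side as Cxcl12, with all 18 lower in GPER KO in each sex, 0 called, and median differences of -0.33 in males and -0.24 in females. Their mean was 6.42, 6.09, 6.41 and 5.97 (log2) in male GPER KO and 6.09, 6.84, 6.53 and 6.64 in male intact arrays, and 6.05, 6.38, 6.17 and 5.90 in female GPER KO and 6.15, 6.61, 6.60 and 6.14 in female intact arrays. The lowest and highest male arrays, KO 451 and intact 433, were so for both Cxcl12 and these markers. The part of the markers in the Cxcl12 values was not tested. Fibroblast markers had 8 of 13 higher in male KO and 10 of 13 in female KO, with medians of 0.10 and 0.19 and 0 called. Smooth muscle and pericyte markers had 3 of 7 higher in male KO and 2 of 7 in female KO, with medians of -0.02 and -0.05 and 0 called in either sex, while Des, the desmin gene, which cardiomyocytes also express, was called higher over both sexes by 0.25 (log2, SE 0.05, adjusted p = 0.0253 from limma).

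**Figure D3:**
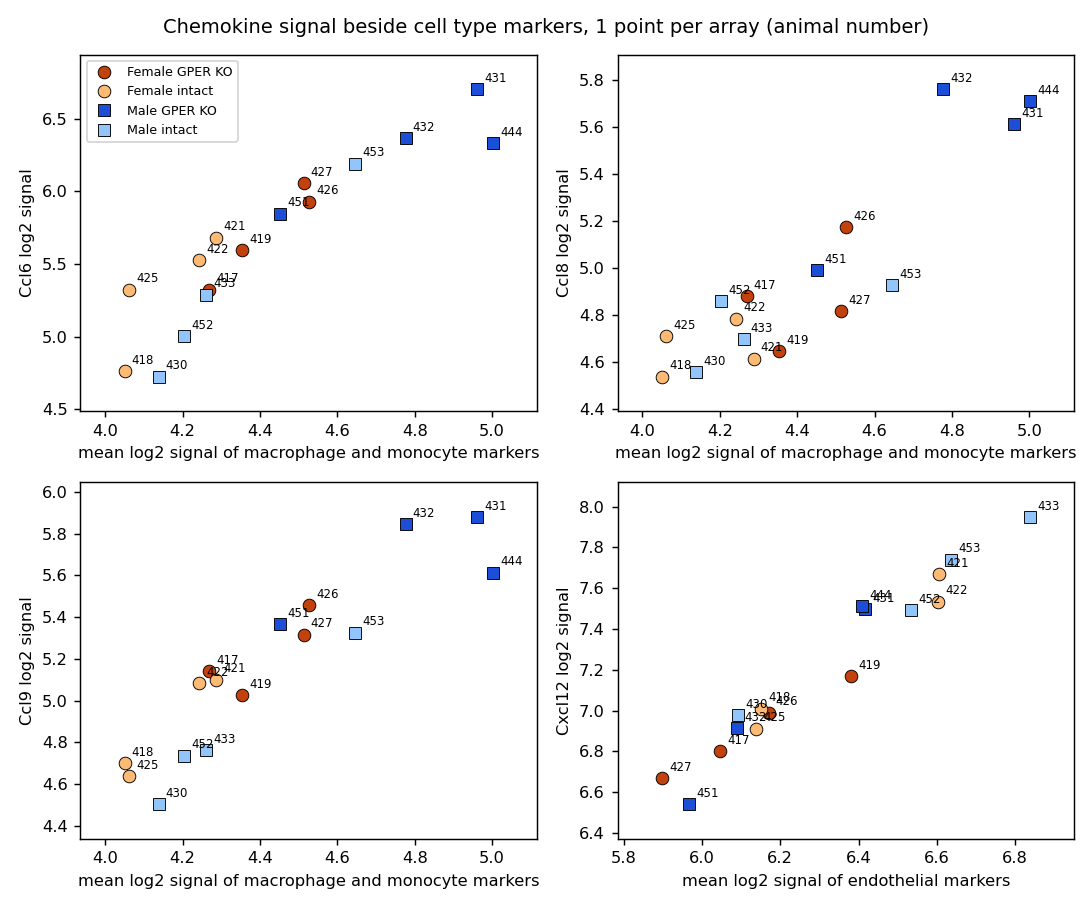
Log2 signal of Ccl6, Ccl8 and Ccl9 against the mean log2 signal of 21 macrophage and monocyte markers, and of Cxcl12 against that of 18 endothelial markers, with 1 point per array labelled by animal number. Male GPER KO arrays 431, 432 and 444 stand at the upper right in the panels of Ccl6, Ccl8 and Ccl9, and intact 453 is the right-most male intact array there.

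The other 5 ligands clearly above the median were called in neither sex. Cxcl16, a membrane-bound ligand of CXCR6 that also binds oxidised lipoprotein, had signals of 5.53, 5.33, 5.38 and 5.34 (log2) in male GPER KO and 5.17, 5.28, 5.37 and 5.36 in male intact cardiomyocytes, and of 5.35, 5.17, 5.24 and 5.33 in female GPER KO and 5.29, 5.31, 5.48 and 5.20 in female intact cardiomyocytes. The groups overlapped, with differences of 0.10 in males and -0.05 in females. Cx3cl1, or fractalkine, a membrane-tethered ligand that is shed by metalloproteases, had signals of 4.72, 4.55, 4.87 and 4.72 in male GPER KO and 4.54, 4.49, 4.61 and 4.59 in male intact cardiomyocytes. In females they were 4.76, 4.63, 4.77 and 4.66 in GPER KO and 4.62, 4.52, 4.85 and 4.62 in intact cardiomyocytes. Its difference was 0.16 in males (SE 0.07, adjusted p = 0.493 from limma) and 0.06 in females (SE 0.07, adjusted p = 0.806 from limma), with overlap in both. A second Cx3cl1 probe set gave 0.01 in males and -0.05 in females.

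Ccl27a, known from skin as a ligand of CCR10, had signals of 4.94, 5.03, 5.07 and 5.05 (log2) in male GPER KO and 4.90, 4.97, 5.02 and 5.04 in male intact cardiomyocytes, and of 4.995, 5.15, 5.09 and 4.96 in female GPER KO and 5.13, 4.94, 5.02 and 5.07 in female intact cardiomyocytes. The groups overlapped, and its differences were 0.04 in males and 0.01 in females. Its other 3 probe sets gave differences of 0.29, 0.17 and -0.06 in males and of 0.09, 0.07 and -0.07 in females. The adjusted p in males was 0.427, 0.614 and 0.866 from limma over all probe sets. The probe sets with 0.29 and 0.17 in males carry suffixes that mark possible matches to related transcripts. The Ccl27a probe sets were thus unequal, and near-identical copies make the gene's identity less certain. Ccl4, a ligand of activated macrophages and lymphocytes, had signals of 4.81, 4.75, 4.87 and 4.80 in male GPER KO and 4.74, 4.94, 5.0004 and 4.70 in male intact cardiomyocytes. In females it had 4.85, 4.71, 4.79 and 4.70 in GPER KO and 4.79, 4.78, 4.87 and 4.78 in intact cardiomyocytes. The groups overlapped, with a difference of -0.04 in each sex. Cxcl17, a mucosal ligand, had 4.92, 4.83, 4.70 and 5.03 in male GPER KO and 4.97, 4.65, 4.89 and 4.93 in male intact cardiomyocytes, and 4.79, 4.74, 4.75 and 4.86 in female GPER KO and 4.68, 4.77, 5.07 and 4.74 in female intact cardiomyocytes. Its groups overlapped as well, with differences of 0.01 in males and -0.03 in females.

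Among the ligands below that level, values are given for those in the study's tables or with the smallest unadjusted p in a contrast. Other ligands of monocytes, eosinophils and T cells, such as Ccl12, are covered by counts alone. Ccl2 had signals of 3.59, 3.69, 3.79 and 3.48 (log2) in male GPER KO and 3.39, 3.24, 3.55 and 3.60 in male intact cardiomyocytes. Ccl7 had 3.97, 3.84, 4.19 and 3.92 in male GPER KO and 3.63, 3.63, 3.66 and 3.84 in male intact cardiomyocytes. Both overlapped, Ccl7 only through KO 432 and intact 453. The male differences were 0.20 (SE 0.09, adjusted p = 0.435 from limma) for Ccl2 and 0.29 (SE 0.10, adjusted p = 0.270 from limma) for Ccl7. In females Ccl2 had 3.54, 3.50, 3.49 and 3.56 in GPER KO and 3.45, 3.39, 3.64 and 3.34 in intact cardiomyocytes, a difference of 0.07. Female Ccl7 signals were 3.75, 3.53, 3.98 and 3.67 in GPER KO and 3.57, 3.57, 3.81 and 3.84 in intact cardiomyocytes, a difference of 0.04.

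Ccl24, an eosinophil attractant, had signals of 4.62, 4.55, 4.33 and 4.47 (log2) in male GPER KO and 4.44, 4.12, 4.33 and 4.36 in male intact cardiomyocytes, a difference of 0.18 (SE 0.09, adjusted p = 0.521 from limma). Its female signals, 4.33, 4.47, 4.63 and 4.55 in GPER KO and 4.35, 4.49, 4.64 and 4.60 in intact cardiomyocytes, differed by -0.02. Both sexes overlapped. Ccl22, a CCR4 ligand of dendritic cells and macrophages, had 3.62, 3.58, 3.67 and 3.65 in female GPER KO and 3.46, 3.44, 3.53 and 3.61 in female intact cardiomyocytes, a difference of 0.12 (SE 0.07, adjusted p = 0.470 from limma). In males its signals were 3.36, 3.44, 3.46 and 3.37 in GPER KO and 3.65, 3.31, 3.36 and 3.43 in intact cardiomyocytes, a difference of -0.03. The female groups of Ccl22 overlapped only through KO 419 and intact 425. Ccl1, a CCR8 ligand of activated T cells, had 3.73, 4.03, 3.62 and 3.66 in female GPER KO and 3.79, 3.95, 3.96 and 3.97 in female intact cardiomyocytes, a difference of -0.16 (SE 0.08, adjusted p = 0.442 from limma). Its male signals were 3.71, 3.79, 3.76 and 3.77 in GPER KO and 3.97, 3.73, 3.78 and 3.81 in intact cardiomyocytes, and both sexes overlapped.

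Cxcl9, an interferon-induced ligand of CXCR3 on T cells, had signals of 3.98, 3.65, 3.77 and 3.99 (log2) in male GPER KO and 3.91, 4.10, 4.55 and 4.46 in male intact cardiomyocytes. In females it had 3.77, 3.81, 3.78 and 3.62 in GPER KO and 3.71, 4.09, 4.22 and 3.53 in intact cardiomyocytes, with overlap in both sexes. The difference was -0.41 in males (SE 0.15, adjusted p = 0.322 from limma) and -0.28 over both sexes (SE 0.11, adjusted p = 0.294 from limma). Cxcl2, a neutrophil attractant, had 2.68, 2.68, 2.67 and 2.78 in female GPER KO and 2.58, 2.64, 2.64 and 2.59 in female intact cardiomyocytes. It was the 1 member of 47 whose female KO arrays all lay above the intact arrays, as 1.95% of all genes did, and its difference was 0.09 (SE 0.05, adjusted p = 0.508 from limma). In males, where Ccl8 and Ccl9 were the 2 of 47 that did so beside 4.24% of all genes, Cxcl2 had 2.89, 2.83, 2.90 and 2.83 in GPER KO and 2.64, 2.73, 2.74 and 2.86 in intact cardiomyocytes, with overlap through intact 453. Counting both directions, groups did not overlap for 3 of 47 members in males, beside 6.21% of all genes, and for 1 of 47 in females, beside 5.69%. No member had KO arrays above intact arrays in both sexes (0 of 47), beside 0.380% of all genes.

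Over all 34 ligands, 23 were higher in male GPER KO and 16 in female GPER KO, with median log2 differences of 0.04 and -0.01. Over all 17097 genes the higher share was 56.5% in males and 41.2% in females, with medians of 0.01 and -0.02. Male differences of the members ran from -0.42 to 1.01 and female differences from -0.37 to 0.40. The male difference exceeded the female one for 30 of the 34 ligands (88.2%) and 6 of the 13 receptors (46.2%), beside 62.5% of all genes. The plot of male against female differences shows Ccl6, Ccl8 and Ccl9 apart from the other members.

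**Figure D4:**
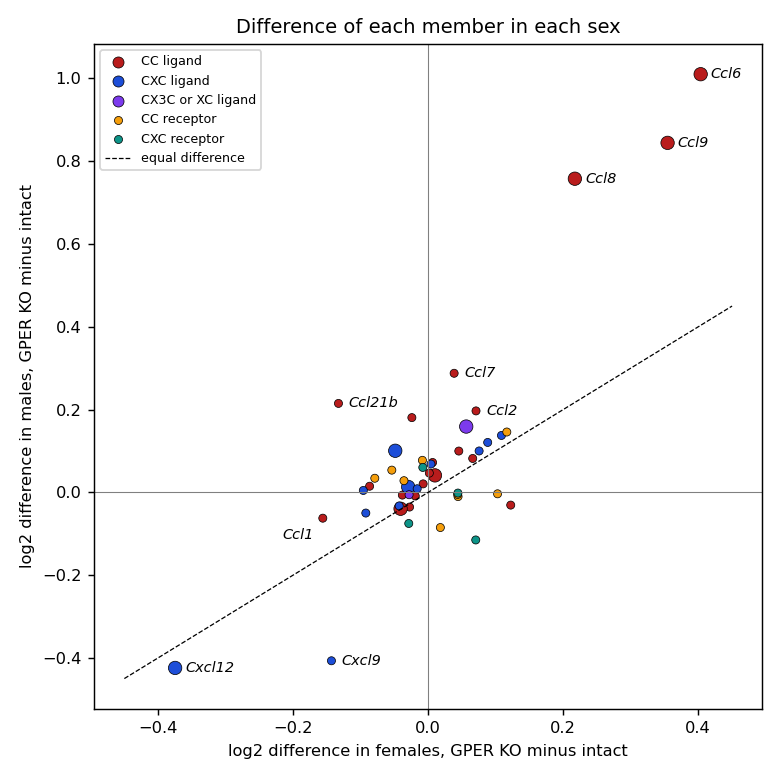
Log2 difference, GPER KO minus intact, of each of the 47 members in males (y axis) and females (x axis), coloured by class, with large points for the 9 members clearly above the array median and a dashed line of equal difference. Ccl6, Ccl8 and Ccl9 have male differences of 1.01, 0.76 and 0.84, and most other members lie near 0 in both sexes.

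The 13 receptors had means between 2.67 (Ccr3) and 4.29 (Ccr6), and their differences ran from -0.12 to 0.15 (log2) in males and from -0.08 to 0.12 in females, with 0 called. Cxcr6, the receptor of CXCL16 on T cells and NK cells, had 3.17, 3.11, 3.09 and 3.14 (log2) in male GPER KO and 3.29, 3.20, 3.18 and 3.30 in male intact cardiomyocytes. It was the 1 member of 47 whose male KO arrays all lay below the intact arrays, as 1.97% of all genes did, and its difference was -0.12 (SE 0.07, adjusted p = 0.638 from limma). Female Cxcr6 signals were 3.32, 3.03, 3.11 and 3.32 in GPER KO and 3.22, 2.99, 3.15 and 3.14 in intact cardiomyocytes, with overlap. A second Cxcr6 probe set gave a difference in the other direction in males, 0.05 (adjusted p = 0.831 from limma over all probe sets), and 0.07 in females. The means of both probe sets, 3.17 and 2.26, lay below the array median. Ccr2, the monocyte receptor of CCL2 and CCL7, had 4 probe sets. The one used gave 0.03 in males and -0.04 in females, and the other 3 gave 0.21, 0.22 and 0.17 in males, with adjusted p = 0.226, 0.413 and 0.382 from limma over all probe sets. So the Ccr2 probe sets were unequal in males, and none was called.

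Known ligand and receptor partners were set side by side for 26 pairs in which both genes were measured. In 6 pairs the ligand was clearly above the array median, namely Ccl6 and Ccl9 with Ccr1, Ccl8 with Ccr8, Ccl27a with Ccr10, Cxcl16 with Cxcr6 and Cx3cl1 with Cx3cr1. In 0 of the 26 pairs, which take receptors that signal through G proteins, was the receptor clearly above it. Cxcl12, Ccl4 and Cxcl17, also clearly above the array median, are in none of these pairs, so the count does not cover them. Cxcr4, a receptor of CXCL12, is not among the members. Ackr3, an atypical receptor that binds CXCL12 and takes it up, was clearly above the array median with a mean of 8.72, and differed by -0.09 (SE 0.11, adjusted p = 0.858 from limma) in males and 0.03 (SE 0.11, adjusted p = 0.937 from limma) in females. Ccr1, the receptor of CCL6 and CCL9 on myeloid cells, differed by -0.01 in males and 0.04 in females, and Ccr8 by 0.05 and -0.05. Several members are neighbours in the genome, and the levels of their probe sets are not compared with each other. In the run Ccl2, Ccl7, Ccl11, Ccl12, Ccl8 and Ccl1 on chromosome 11 (6 protein-coding genes in RefSeq order), only Ccl8 was clearly above the array median. In the run Ccl5, Ccl9, Ccl6, Ccl3 and Ccl4 on the same chromosome (5 genes), Ccl9, Ccl6 and Ccl4 were.

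Male and female intact cardiomyocytes were compared for a sex difference without the deletion. Here 0 of 47 members were called, where limma called 0.579% of all genes (0.281% higher in males and 0.298% lower). An unadjusted p under 0.05 was reached by 6 of 47 members, beside 17.5% of all genes. Ccl11, or eotaxin, an eosinophil attractant, had 2.84, 2.79, 2.76 and 2.88 (log2) in male intact and 2.64, 2.65, 2.59 and 2.64 in female intact cardiomyocytes. The groups did not overlap, and the male minus female difference was 0.19 (SE 0.06, adjusted p = 0.120 from limma). The signal lay below the array median in both. The GPER KO arrays, with 2.81, 2.995, 2.85 and 2.69 in males and 2.63, 2.64, 2.58 and 2.64 in females, did not overlap between the sexes either. The share of all genes without overlap between the sexes was not counted, so this separation has no background to be read against. Ccl24 differed by -0.20 (SE 0.09, adjusted p = 0.248 from limma) and Cxcl2 by 0.13 (SE 0.05, adjusted p = 0.207 from limma). Ccr9, a receptor of gut-homing lymphocytes, had 3.11, 3.10, 3.07 and 2.92 in male intact and 3.23, 3.09, 3.21 and 3.14 in female intact cardiomyocytes, a difference of -0.12 (SE 0.05, adjusted p = 0.269 from limma), with overlap. In GPER KO cardiomyocytes Ccr9 had 3.04, 3.11, 3.13 and 3.06 in males and 3.08, 3.12, 3.11 and 3.04 in females. The other Ccr9 probe sets gave male minus female differences of 0.01, -0.12 and 0.03 in intact cardiomyocytes. All Ccr9 probe sets had means below the array median.

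Genes around the chemokines were read from 4 lists. Of 12 measured relatives outside the naming rule, such as atypical receptors and platelet chemokines, 0 were called in either sex. Pf4, a chemokine of platelets that macrophages also make, differed by 0.52 in males (SE 0.20, adjusted p = 0.329 from limma) and Ccrl2, an atypical receptor that presents chemerin, by -0.28 in females (SE 0.14, adjusted p = 0.447 from limma). Of 33 genes of signal transduction behind chemokine receptors, 1 was called in males and 0 in females. It was Prkcd, the protein kinase C delta gene, higher by 0.46 in males (SE 0.10, adjusted p = 0.0362 from limma) and by 0.41 over both sexes (SE 0.07, adjusted p = 0.0040 from limma). Of 22 inducers of chemokine transcription, 0 were called in either sex. The smallest unadjusted p in females was that of Tlr4, the receptor of bacterial lipopolysaccharide, with a difference of 0.94 (SE 0.24, adjusted p = 0.144 from limma), and in males that of Relb, an NF-kB subunit, with 0.40 (SE 0.13, adjusted p = 0.256 from limma). Of 10 genes of chemokine shedding and cleavage, 2 were called in males and 0 in females. Ctss, cathepsin S, rose by 1.30 in males (SE 0.26, adjusted p = 0.0320 from limma) and stands in the macrophage list as well. Mmp12, the macrophage elastase, which cleaves several chemokines, rose by 0.41 in males (SE 0.09, adjusted p = 0.0447 from limma), from a mean below the array median. Between intact males and females, Adam17 was the 1 gene of this list called, and it was higher in males.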

How the data were processed

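Total RNA of cardiomyocyte preparations was measured in 16 mice (4 per group) on Affymetrix MG-430 PM arrays. The deposited log2 values per probe set were made by the authors with RMA, and the submitters' processing notes also name Partek, with no versions. RMA as usually run includes background correction and quantile normalization, which can dampen low signals. Scanner signals were not used here, and array strips or processing days are not given in the sources used here. Precision is limited by the 4 arrays per group.

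Of 45141 probe sets, 28898 carry 1 gene in the platform annotation, 551 several and 15692 none, and 28689 matched the RefSeq table of GRCm38.p6. The probe set with the highest mean stood for each of 17097 genes, of which 7180 had several. Groups came from the genotype and gender labels. Differences were estimated with limma 3.58.1 in R 4.3.3, from a linear model of 4 group means with moderated variances, with Benjamini-Hochberg adjustment over all genes, and called at an adjusted p under 0.05. The test was tried on simulated data.

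Members, gene lists and marker lists were chosen with earlier results of these data known. Values per array are given for members clearly above the array median, called members, the 2 per direction and contrast with the smallest unadjusted p, and 5 listed in the study's tables. From each list of genes around the chemokines, genes called in either sex are named. Where none was called, a gene among the 2 with the smallest unadjusted p in that sex is named. Marker lists are given by counts, with called genes named. Adgre1, Ackr3, Ccr1, Ccr2 and Ccr8 were chosen after their values were seen. Alternatives were averaging the probe sets of a gene, a filter on dim genes, quantile normalization repeated, centring of arrays, array weights, eBayes with trend and robust settings, arrays of 1 sex, arrays left out and other level thresholds.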

Additional observations from a re-analysis of the deposited data

Results flagged for a closer look

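Among 76 groups of 4 arrays (19 named members), 4 held an array whose gap to its nearest neighbour, as a share of the whole range of its group, was above Dixon's 95% critical value for 4 samples. Chance alone passes about 0.05 of groups, and 4 of 76 is close to that. Ccl7 in male intact 453 was high, with 3.84 (log2) beside 3.63 to 3.66 in the other 3 arrays (share 0.872). Cxcl2 in female GPER KO 427 was high, with 2.78 beside 2.67 to 2.68 (share 0.898). Ccl4 in female intact 422 was high, with 4.87 beside 4.78 to 4.79 (share 0.922). Ccl1 in female intact 418 was low, with 3.79 beside 3.95 to 3.97 (share 0.878).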

How the results depend on the processing

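No paired analysis was possible because each animal number is unique. In males the count of called members was 2. It was 1 (Ccl8) with the mean of all probe sets of a gene, 0 with arrays of 1 sex alone, and 0 to 3 with single arrays left out, where 0 came without male GPER KO 431 or 432 or male intact 430, 433 or 452 and 3 without male intact 453. Over both sexes the count was 2, with 1 (Ccl9) when female intact 421 and 422 were both left out and 1 to 3 with single arrays left out. In females, for the difference between the sexes and between intact males and females, it was 0 in every setting run. The number of members clearly above the array median was 9, with 15 at 0.5 and 2 (Ccl6 and Cxcl12) at 2 log2 units above the median. No called difference of a named member changed direction. The cause of these changes was not tested. Of the 47 members, 38 had means less than 1 log2 unit above the array median or below it, and whether their low signal limited the calls was not tested.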
